A study of Mus musculus with 4 samples.

Results

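Guanylate-binding proteins (GBPs) and immunity-related GTPases (IRGs) were followed as one set of 10 mouse genes: Gbp2, Gbp3, Gbp4, Gbp5, Gbp6, Gbp7, Irgm1, Irgm2, Igtp and Iigp1. A gene was measured where the annotation of the Mouse Genome 430 2.0 array gave its symbol, and no other, to a probe set, the group of probes that reads one transcript. That held for 8 of the 10 genes, of 18193 genes named in this way on the array, and gave 12 probe sets. Gbp4 had 1 probe set, which it shares with another symbol, and Gbp5 had 0, so neither is described by a value. The 10 genes were chosen with the difference between the groups known, so their values are a description and carry no p-value.

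The RNA was that of mouse leukemic cells driven by MLL-AF9, a fusion oncogene of acute leukemia, which were taken from the bone marrow of C57BL/6 recipients. The cells were Ezh2 KO (2 arrays) or wild type (WT, 2 arrays), and both groups carried MLL-AF9. Ezh2 is the methyltransferase of PRC2, a Polycomb complex that places a repressive mark on histone H3. The labels conflict on the Ezh2 KO arrays: their genotype field names Ezh2, whereas a protocol field gives the marrow cells as Ink4a-/-Arf-/-. The genotype field is used for the group name. The labels give no age, and they do not state whether replicates are different mice or different leukemias, so the spread between arrays may be technical.

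Both families are GTPases that defend a cell from within against bacteria and parasites that live in vacuoles. Interferon-gamma induces them strongly, and type I interferon does so as well. GBPs are large dynamin-like GTPases, several of which are anchored in membranes by a lipid tail, and they coat and disrupt pathogen vacuoles and help to start inflammasomes. Among the IRGs, Irgm1, Irgm2 and Igtp (also called Irgm3) are regulators that sit on the cell's own membranes and hold the effector IRGs inactive there, while Iigp1 (Irga6) is an effector that loads onto the vacuole.

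The windows from 250 bases before to 50 bases after the RefSeq start sites (GRCm38.p6) show what the promoters of these genes share. The promoter sequences were not used to choose the genes. Both families are known as interferon-induced, however, so shared interferon elements are no independent finding. RefSeq windows were matched by symbol for 7 of the 10 genes. Each was searched for the interferon-stimulated response element (ISRE), spelled GAAA, any 2 bases and GAAA, and for the gamma-activated sequence (GAS), spelled TTC, any 3 bases and GAA, on both strands. In the windows printed here, capitals mark these matches.
Gbp2, chr3:142620413-142620712 (+ strand): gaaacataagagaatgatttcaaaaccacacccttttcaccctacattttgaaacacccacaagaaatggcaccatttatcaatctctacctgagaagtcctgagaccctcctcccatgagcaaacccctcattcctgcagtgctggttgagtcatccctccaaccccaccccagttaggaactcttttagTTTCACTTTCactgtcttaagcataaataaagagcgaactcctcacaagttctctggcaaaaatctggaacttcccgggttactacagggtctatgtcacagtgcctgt
Irgm1, chr11:48871371-48871670 (- strand): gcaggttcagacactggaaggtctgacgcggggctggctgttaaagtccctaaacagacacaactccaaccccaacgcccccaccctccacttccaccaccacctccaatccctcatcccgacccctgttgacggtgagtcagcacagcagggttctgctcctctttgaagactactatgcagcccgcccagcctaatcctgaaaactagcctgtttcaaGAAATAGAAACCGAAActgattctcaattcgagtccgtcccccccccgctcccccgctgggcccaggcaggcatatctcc
Igtp, chr11:58199306-58199605 (+ strand): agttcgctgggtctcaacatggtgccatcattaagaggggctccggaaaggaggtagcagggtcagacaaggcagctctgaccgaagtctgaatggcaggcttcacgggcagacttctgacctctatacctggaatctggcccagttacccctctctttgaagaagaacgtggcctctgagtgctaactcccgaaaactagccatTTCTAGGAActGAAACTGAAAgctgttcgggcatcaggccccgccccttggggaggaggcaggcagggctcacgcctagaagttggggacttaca
Irgm2, chr11:58214727-58215026 (+ strand): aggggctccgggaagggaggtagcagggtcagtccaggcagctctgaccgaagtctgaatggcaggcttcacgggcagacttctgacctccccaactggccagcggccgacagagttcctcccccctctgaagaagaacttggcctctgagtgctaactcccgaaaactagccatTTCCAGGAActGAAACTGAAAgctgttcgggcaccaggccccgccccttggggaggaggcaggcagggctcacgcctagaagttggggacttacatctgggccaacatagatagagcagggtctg

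Gbp2 is shown because it had the largest difference between the groups, Irgm1 because it had the smallest, and Igtp with Irgm2 because they are neighbours. All 7 genes with a window, Gbp5 included, held the ISRE letters, against 3.44% of all 32851 promoter windows of this length. For Gbp3, which has windows at 2 start sites, the match lay in the first of them. GAS letters were found in 4 of the 7 genes (Gbp5, Gbp7, Igtp and Irgm2), against 8.30% of all windows. No ISRE match overlapped a GAS match. In Gbp2 the ISRE letters lay 59 to 50 bases before the start site. In Irgm1 a pair of overlapping ISRE matches ran from 30 to 15 bases before it. Igtp and Irgm2 each held GAS letters just before ISRE letters. Their windows were alike over most of their length, with 246 of 300 bases matched in order, and the ISRE letters were the same in both. The longest run of identical bases, 61, lay after both motifs and held no ISRE letters. Such neighbouring relatives are not separate observations. A match is a description of the letters and says nothing about which factor is bound.

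**Figure D1:**
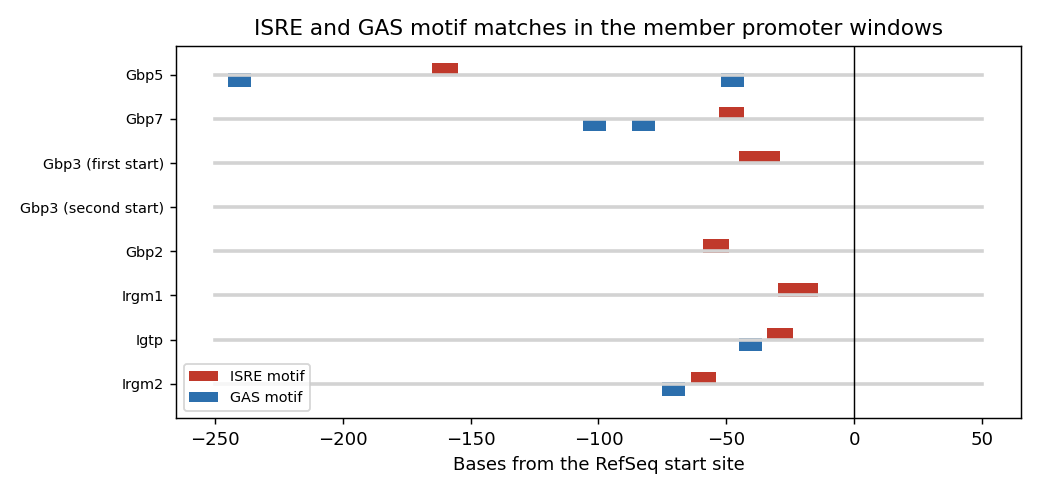
Positions of ISRE (red) and GAS (blue) motif matches in the promoter windows of 7 member genes, in bases from the RefSeq start site, with 1 row per window. ISRE matches lie within 64 bases before the start site in every row that has one, except that of Gbp5, which starts at -165.

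Genes outside the set with the same letters were counted too, after the values were seen and with no test. Of 410 tested genes outside the set with ISRE letters in a window, 28 (6.83%) were lower and 19 (4.63%) higher in Ezh2 KO cells, with a median log2 change of -0.01. Among all 11235 tested genes with a window, 4.73% were lower and 4.50% higher. Of the 933 genes with GAS letters 5.25% were lower.

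Each array had been scaled by the authors to a trimmed mean intensity of 500, so levels are relative to the rest of the array. Probe sets were tested when their mean over the 4 arrays exceeded an intensity of 21.9, the 30th percentile, and 31526 were. This is a cut on dim signals, not a measured background. The Ezh2 probe set itself read 4989 and 4991 in Ezh2 KO cells and 5216 and 5315 in WT cells (limma adjusted p = 0.555). Where it lies relative to the deletion is not known here, so it checks nothing about the labels. All 10 listed leukemic markers, Mpo, Elane, Ptprc, Kit and Hoxa9 among them, were above the filter in both groups. On each array 66.9% to 72.0% of probe sets exceeded it, so this does not identify the cell type.

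All 12 probe sets of the set were lower in Ezh2 KO cells than in WT cells, and the 2 groups of arrays overlapped in 0 of the 12. Among all tested probe sets, 21.7% had both Ezh2 KO arrays below both WT arrays. Log2 changes, taken on intensity plus 16 as Ezh2 KO minus WT, ran from -3.72 to -0.60 with a median of -1.28. The median was 0.04 over all tested probe sets, of which the lowest 1% were at -1.10 or below. In limma's fit across all probe sets, 10 of the 12 passed an adjusted p of 0.05 in the lower direction and 0 in the higher one. The background is 7.31% of probe sets called, 3.39% lower and 3.91% higher, and since the genes were chosen on this contrast nothing is read from the count. The 7 GBP probe sets had a median log2 change of -2.51 and the 5 IRG probe sets one of -0.98, with genes that have 2 probe sets entering with both. With 1 added in place of 16 these medians were -3.78 and -1.15, and with 64 they were -1.30 and -0.68. With 16 added, the GBP median was the value of Gbp6 probe set 1447927_at, which was below the filter intensity on both Ezh2 KO arrays. The IRG median was that of Iigp1 probe set 1419043_a_at, which did not pass the threshold. Gbp7 (-1.12 and -1.22) and Gbp3 (-0.77) lay within the IRG range of -1.45 to -0.60. These are bulk samples, in which fewer expressing cells and less RNA per cell cannot be told apart.

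**Figure D2:**
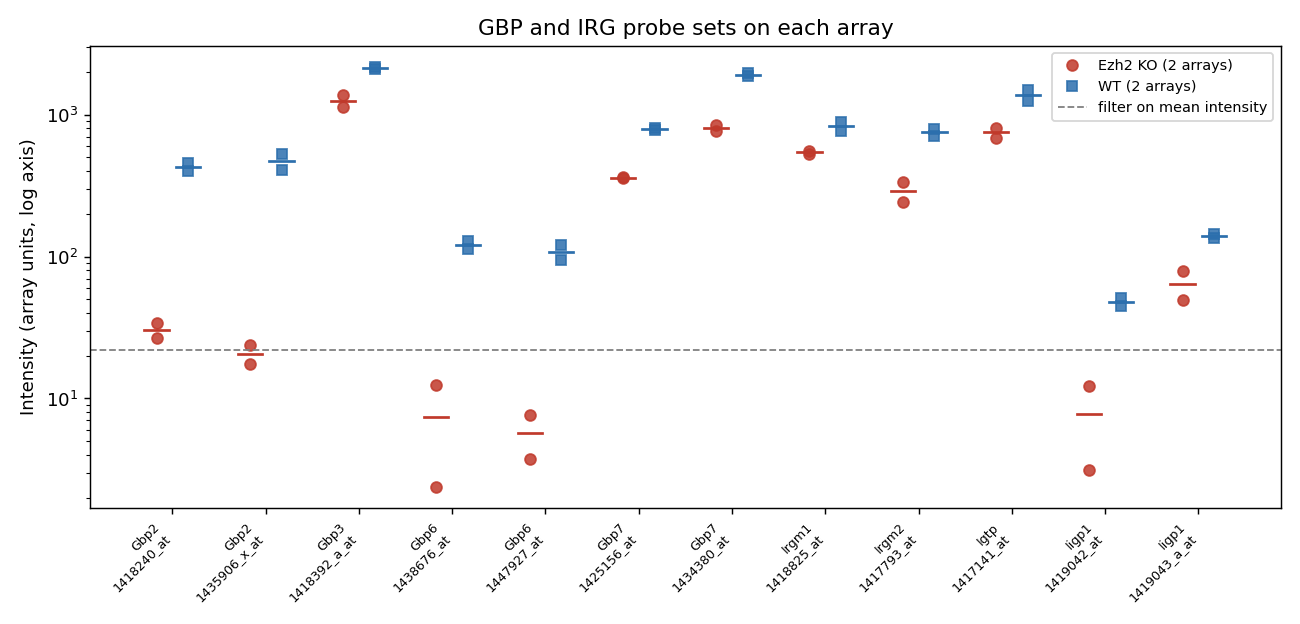
Intensity of each of the 12 probe sets on each array (log axis), with Ezh2 KO arrays as circles and WT arrays as squares, bars at the group means, and the filter intensity of 21.9 as a dashed line. Every circle lies below the squares of its probe set, and both circles lie below the dashed line for Gbp6 (2 probe sets) and for 1 Iigp1 probe set.

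Gbp2, a membrane-anchored GBP that coats pathogen vacuoles, had the largest difference. Its probe set 1418240_at read 26.5 and 34.1 in Ezh2 KO cells, against 456 and 399.7 in WT cells. Its mean was 30.3 ± 5.36 in Ezh2 KO cells and 428 ± 39.7 in WT cells (SD, n = 2 arrays each), a log2 change of -3.26 (SE 0.22). A second Gbp2 probe set, 1435906_x_at, read 24.0 and 17.4 in Ezh2 KO cells, against 528 and 409 in WT cells, a log2 change of -3.72 (SE 0.24). With 1 added in place of 16 the changes of 1418240_at and 1435906_x_at were -3.78 and -4.44, and with 64 they were -2.38 and -2.64. The suffix _x_at marks a probe set of which some probes also match other transcripts. In both, the Ezh2 KO arrays were close to the filter intensity and the WT arrays well above it. The 2 log2 changes differed by 0.46 (95% interval -0.27 to 1.18), so the probe sets were not told apart.

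Gbp6, whose gene lies in a second GBP cluster on another chromosome, was dim in WT cells and below the filter intensity in Ezh2 KO cells. Probe set 1438676_at read 2.37 and 12.5 in Ezh2 KO cells, against 113 and 129 in WT cells. Probe set 1447927_at read 7.67 and 3.75 in Ezh2 KO cells, against 94.7 and 121 in WT cells. All 4 of these Ezh2 KO readings were below the filter intensity, so both probe sets passed the filter through the WT arrays. The log2 changes of -2.58 and -2.51 (SE 0.39 each) depend on the constant added: with 1 in place of 16 they were -4.17 and -4.07, and with 64 they were -1.37 and -1.30.

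Gbp7, which in mouse macrophages helps to bring antimicrobial and autophagy machinery to vacuoles, was well above the filter intensity in both groups. Its probe set 1425156_at read 356 and 361 in Ezh2 KO cells, against 809.7 and 782 in WT cells, a log2 change of -1.12 (SE 0.11). Probe set 1434380_at read 849 and 770.0 in Ezh2 KO cells, against 1857 and 1959 in WT cells, a log2 change of -1.22 (SE 0.09). The changes of the 2 probe sets were not told apart, with a difference of 0.11 (95% interval -0.21 to 0.42). Gbp3, which is next to Gbp7 in the first cluster, read 1129.7 and 1375 in Ezh2 KO cells, against 2105 and 2167 in WT cells. Its log2 change of -0.77 (SE 0.10) was the smallest among the GBPs, and its arrays stayed far above the filter in both groups.

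The regulatory IRGs were lower in Ezh2 KO cells by less than Gbp2. Irgm2 read 336 and 244 in Ezh2 KO cells, against 706 and 792 in WT cells, a log2 change of -1.34 (SE 0.16). Igtp, its neighbour on the chromosome, read 809 and 689 in Ezh2 KO cells, against 1503 and 1242 in WT cells, a log2 change of -0.86 (SE 0.12). Both were lower on each Ezh2 KO array than on either WT array. Irgm1, which in mice is needed for resistance to mycobacteria, read 529.8 and 554 in Ezh2 KO cells, against 773 and 889 in WT cells. Its log2 change of -0.60 (SE 0.11) was the smallest of the 12.

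Iigp1, the effector IRG, was dim. Probe set 1419043_a_at read 49.2 and 79.0 in Ezh2 KO cells, against 144 and 135 in WT cells, a log2 change of -0.98 (SE 0.27). Probe set 1419042_at read 3.15 and 12.3 in Ezh2 KO cells, against 50.9 and 44.9 in WT cells, a log2 change of -1.45 (SE 0.48). The Ezh2 KO readings of 1419042_at were both below the filter intensity, and its change was -2.71 with 1 added and -0.64 with 64. These were the 2 probe sets that did not pass the threshold. The suffix _a_at marks a probe set that reads several transcripts of 1 gene.

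Placed in order of log2 change, no probe set was told apart from the next. Sorting puts the nearest values side by side, so this was likely in advance and says nothing about probe sets further apart. The 95% interval of each of the 11 differences between neighbours in the order held 0, with the errors taken as independent, although all probe sets share the same 4 arrays. Over the whole order the range of -3.72 to -0.60 was wide beside standard errors of 0.09 to 0.48. Within the groups neither array was higher throughout. WT replicate 1 was above WT replicate 2 in 6 of the 12 probe sets, and Ezh2 KO replicate 1 above Ezh2 KO replicate 2 in 5 of the 12. The median absolute log2 difference was 0.26 between the Ezh2 KO arrays and 0.16 between the WT arrays, against 1.28 between the groups. The genes were chosen with the group difference known, so the larger value between groups follows from that choice. That value also compares means of 2 arrays, whereas the within-group values compare single arrays. Over all tested probe sets the within-group medians were 0.17 for Ezh2 KO and 0.18 for WT, and the median absolute change between the groups was 0.21.

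**Figure D3:**
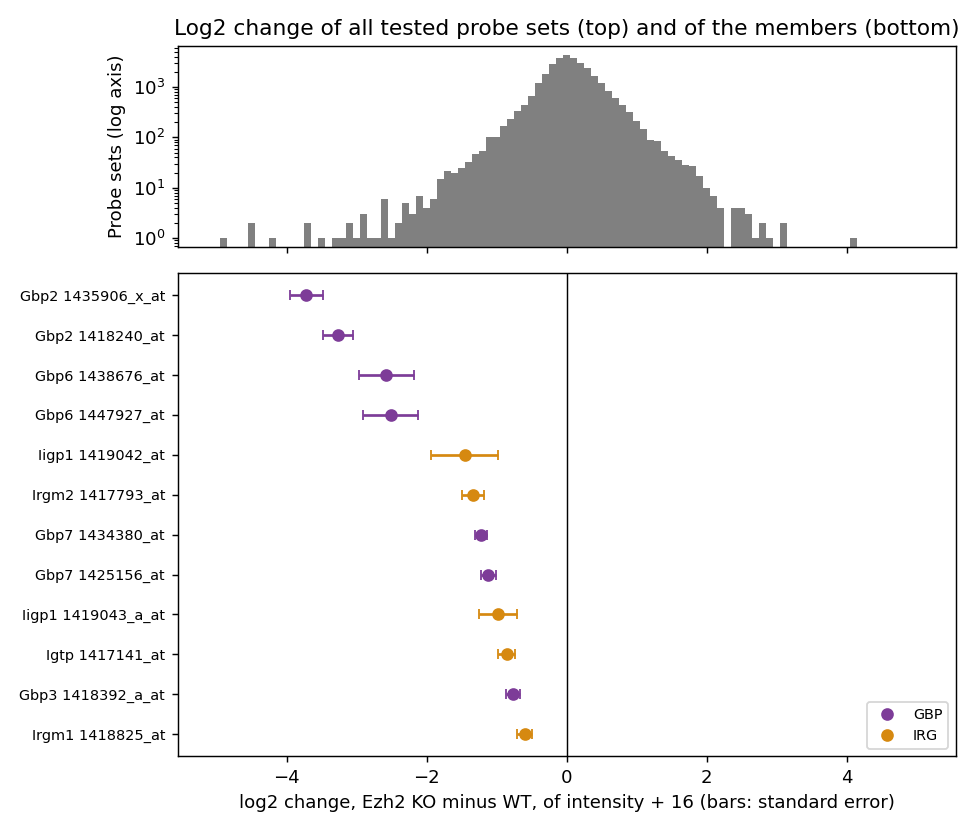
Top: number of all 31526 tested probe sets (log axis) by log2 change, Ezh2 KO minus WT. Bottom: log2 change of the 12 probe sets with standard errors, GBPs in purple and IRGs in orange. All 12 lie left of 0, from -3.72 for Gbp2 to -0.60 for Irgm1.

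All log2 changes stayed negative in every alternative fit. The count of 10 was, without WT replicate 2, 8 of 11 tested, with Irgm1 and probe set 1447927_at of Gbp6 no longer past the threshold. With a single prior variance in place of one that follows intensity, limma called 0 of the 12 and 0 of all probe sets, although 4978 had an unadjusted p under 0.05. Leaving out WT replicate 1 left 1175 calls over all probe sets (453 lower and 722 higher), where all 4 arrays gave 2303 (1069 lower and 1234 higher). Centring each array on its median gave 1662 lower and 837 higher, and kept all 12 probe sets negative.

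The genes next to the set on the chromosomes were examined after the values were seen, using RefSeq only for the order of genes. Gbp7, Gbp3 and Gbp2 lie in 1 cluster with Gbp5 and Gbp2b, Gbp6 lies in another with Gbp4, Gbp8, Gbp9, Gbp10 and Gbp11, and Igtp adjoins Irgm2. For each of these clusters and for Irgm1 the 3 nearest tested genes outside the families on either side were taken, 24 in all. Of these 0 were lower and 4 higher, with a median log2 change of -0.0032. The 4 were Abcg3 (1.01, SE 0.19) and Zfp326 (0.50, SE 0.11) beside the Gbp6 cluster, 4930438A08Rik (0.93, SE 0.08) beside Irgm2, and Btnl9 (0.35, SE 0.07) beside Irgm1, at limma adjusted p of 0.0137, 0.0274, 0.000231 and 0.0233. Over all tested genes 4.52% were higher. Leaving aside the single prior variance, Zfp326 passed in 9 of 13 alternatives (adjusted p up to 0.139) and Btnl9 in 8 of 13 (up to 0.101). Kyat3, the first gene after Gbp2, had the lowest value, at -0.52 (SE 0.15, limma adjusted p = 0.0707). It read 394 and 306 in Ezh2 KO cells, against 541 and 471 in WT cells, and passed in 4 of the same 13 alternatives. The nearest genes on the other side of that cluster, Pdlim5 and Unc5c, were at 0.28 and 0.19.

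**Figure D4:**
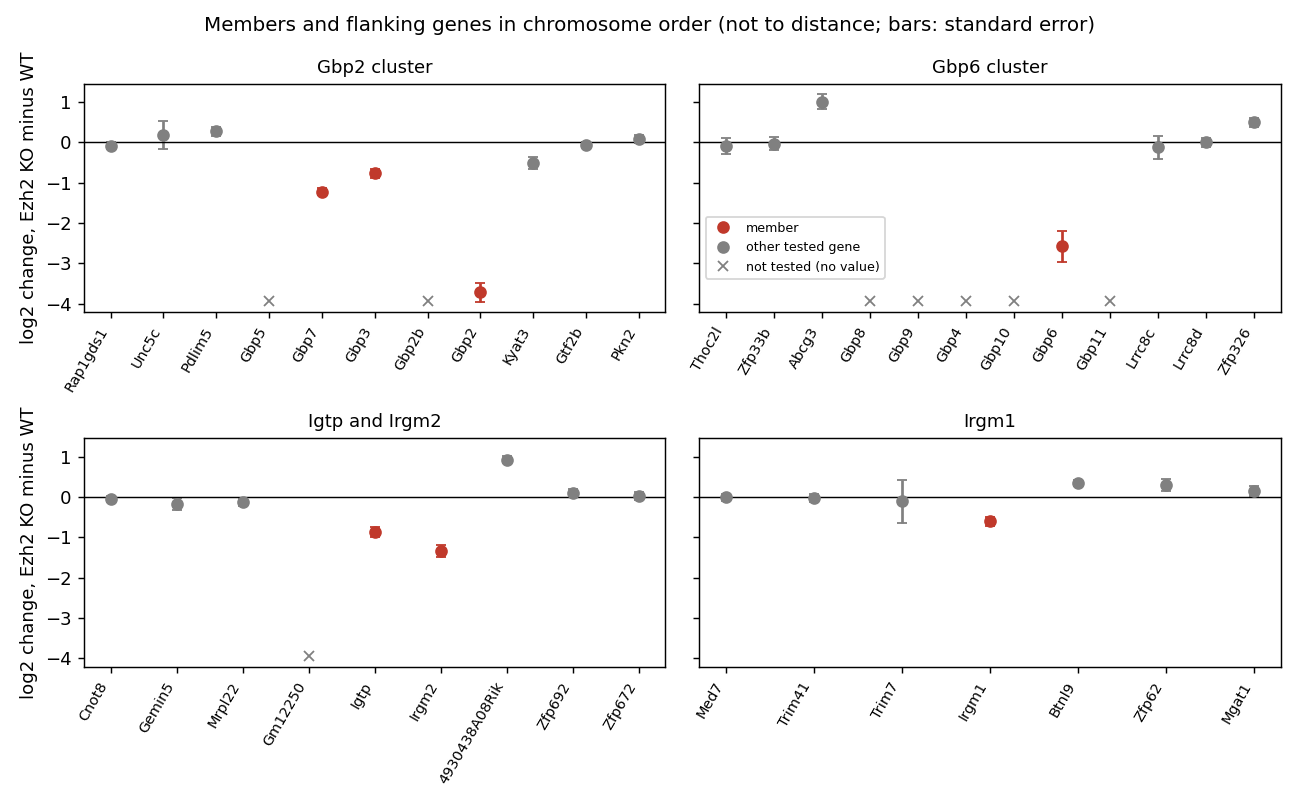
Log2 change (Ezh2 KO minus WT, with standard error) of members (red) and flanking genes (grey) in chromosome order, without distances; crosses mark genes with no tested probe set. Every member shown with a tested probe set lies below 0, and none of the 24 flanking genes was called lower. Gbp4 and Gbp5 have no value, and Iigp1 is not shown.

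Relatives of the set outside the 10 genes, where a probe set had their symbol alone, were mostly dim on this array. The IRG gene Ifi47 (Irgd), an effector-like GTPase, read 1095 and 1187 in Ezh2 KO cells, against 2359 and 2139 in WT cells, and fell by 0.97 on the log2 scale (SE 0.09, limma adjusted p = 0.000235). Gbp2b, which lies between Gbp3 and Gbp2 and is the mouse gene long called Gbp1, read 13.5 and 1.27 in Ezh2 KO cells, against 23.5 and 32.9 in WT cells, and did not reach the filter. Gm4951, an IRG relative that also did not reach the filter, read 35.8 and 21.4 in Ezh2 KO cells, against 7.66 and 10.97 in WT cells, so its arrays were higher in Ezh2 KO cells. Gm12185, another relative, read 53.4 and 37.1 in Ezh2 KO cells, against 50.6 and 52.6 in WT cells, and did not pass (-0.16, SE 0.34). Gbp8 and Irgc1 were below the filter intensity on all 4 arrays. Irgq, a GTPase-like relative that interferon is not known to induce, had a difference of -0.20 on the log2 scale (SE 0.16, limma adjusted p = 0.563). Atl1, an atlastin of the endoplasmic reticulum, rose by 0.84 (SE 0.19, limma adjusted p = 0.0274), a call that was lost on leaving out any 1 array (adjusted p = 0.057 to 0.0899). In all, 1 of the 6 tested genes of this list was lower and 1 higher, with a median of -0.09. Across all 13928 tested genes, each represented by its brightest probe set, 4.66% were lower, 4.52% higher, and the median was 0.01. A further 2 probe sets with several symbols, GTPases of the list among them, are therefore not named. They had log2 changes of -3.02 and -3.07 and were both called lower. The first read 65.0 and 75.3 in Ezh2 KO cells, against 713 and 649 in WT cells. The second read 204 and 233 in Ezh2 KO cells, against 1813 and 2083 in WT cells. Another such probe set did not reach the filter, at 6.33 and 17.9 in Ezh2 KO cells, against 6.61 and 2.12 in WT cells.

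Upstream of the set, the interferon-gamma gene itself read below the filter intensity and its receptor genes did not pass the test. Ifng read 3.07 and 2.49 in Ezh2 KO cells, against 5.91 and 2.53 in WT cells. The receptor gene Ifngr1 read 5881 and 5875 in Ezh2 KO cells, against 5973 and 5886 in WT cells (-0.01 on the log2 scale, SE 0.06, limma adjusted p = 0.942). Ifngr2 and the kinase genes Jak1 and Jak2 had changes of 0.10, 0.20 and 0.30 and did not pass either, and these 5 were picked out after their values were seen. Of 21 tested genes of the interferon ligands, receptors and signal transducers 2 were lower and 0 higher (median -0.06). Over all tested genes 4.66% were lower and 4.52% higher. The 2 lower genes were the interferon regulatory factors Irf8 and Irf1, both of which bind ISREs. Irf8, also a factor of the monocyte lineage, read 1370 and 1386 in Ezh2 KO cells, against 2014 and 2085 in WT cells, and fell by 0.57 (SE 0.08, limma adjusted p = 0.00238). Irf1 read 909.7 and 966 in Ezh2 KO cells, against 1318 and 1377 in WT cells, and fell by 0.52 (SE 0.09, limma adjusted p = 0.0072).

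Among other genes that interferon-gamma induces, 9 of 19 tested were lower and 0 higher, with a median log2 change of -0.69. The shares over all tested genes were 4.66% lower and 4.52% higher. Nlrc5, which switches on MHC class I genes, read 41.8 and 56.6 in Ezh2 KO cells, against 462 and 445 in WT cells and fell by 2.86 on the log2 scale (SE 0.20, limma adjusted p = 4.99e-05). The chemokine gene Cxcl9 read 3.00 and 4.14 in Ezh2 KO cells, against 88.0 and 127 in WT cells. Its change of -2.64 rests on Ezh2 KO signals below the filter, and its call was lost without WT replicate 2 (-2.41, limma adjusted p = 0.071). Psmb9 and Psmb8, subunits of the immunoproteasome, fell by 1.10 and 1.08 (SE 0.07 each). The other members called lower were Psmb10, Psme1, Tap1, Tap2 and B2m. Of the 19 tested, 18 had a negative log2 change. Those not past the threshold ran from -1.21 for Batf2 to 0.13 for Cd74, with Ciita at -0.31, Ido1 at -0.19 and Icam1 at -0.11. Of the genes induced by type I interferon 7 of 18 were lower and 0 higher, with a median of -0.50, and 4 were past the threshold without WT replicate 1. Parp14, a mono-ADP-ribosyltransferase, fell by 1.27 (SE 0.17), the tetherin gene Bst2 by 0.78 (SE 0.12), Xaf1 by 0.76 (SE 0.13) and Trim30a by 0.64 (SE 0.09). The other members called lower were Oas1a (-0.45), Ifi35 (-0.42) and Cmpk2 (-0.55). Of the 18 tested, 17 had a negative log2 change, and the 11 not past the threshold ran from -1.24 for Oasl2 to 0.06 for Oasl1. Much of this was known from earlier results on these arrays when the lists were written, so the counts are not independent of the choice of the set.

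Downstream, the inflammasome genes were measured. Of 13 tested 4 were lower and 0 higher, although the median was 0.02. Among all tested genes 4.66% were lower and 4.52% higher. Zbp1, a sensor of Z-form nucleic acids, fell by 1.60 (SE 0.25, limma adjusted p = 0.00562). Casp1 fell by 0.87 (SE 0.09), Casp4, the receptor caspase for cytosolic lipopolysaccharide, by 0.55 (SE 0.11), and the adaptor Pycard by 0.31 (SE 0.07). The DNA sensor Aim2 and the pore protein Gsdmd did not pass, at -0.30 (SE 0.26) and 0.20 (SE 0.08), and were also picked out after the values were seen. Without WT replicate 1, or without Ezh2 KO replicate 1, 2 of the 13 passed. The lipidation and vacuole-targeting partners, the enzymes that prenylate GBPs and the autophagy conjugation proteins that steer both families to vacuoles, had 0 lower and 1 higher of 18 tested, with a median of 0.0019. Map1lc3a, a homolog of Atg8, was the one that rose, by 0.66 (SE 0.08, limma adjusted p = 0.00183). A single call among 18 is near the 4.52% called higher over all tested genes, so nothing is read from it.

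**Figure D5:**
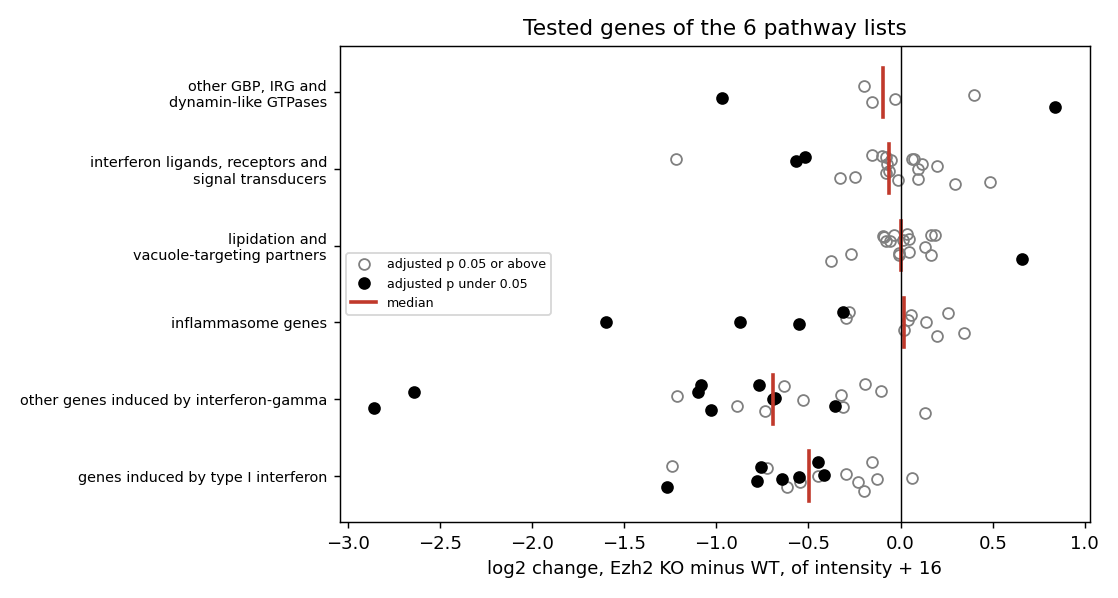
Log2 change (Ezh2 KO minus WT) of each tested gene in the 6 lists, filled where the limma adjusted p was under 0.05, with the list median as a red bar and vertical scatter added for legibility. The medians are -0.69 for other genes induced by interferon-gamma and -0.50 for those induced by type I interferon, and lie between -0.09 and 0.02 for the other 4 lists.

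Over the 4 arrays, the genes outside the set whose profile lay nearest to that of Gbp2 (probe set 1435906_x_at) were Cox6b2, Ikzf2, Nlrc5, 1700097N02Rik and Cxcl9. Nearness was the Euclidean distance between log2 profiles centred on their own mean, over 13920 candidate genes. The distances were 0.60, 0.76, 0.98, 1.06 and 1.25. Among the set, the other Gbp2 probe set was at 0.59, those of Gbp6 at 1.36 and 1.30, and the remaining members at 2.34 or more. The nearest of them, Cox6b2, a subunit of cytochrome c oxidase, read 88.6 and 97.8 in Ezh2 KO cells, against 1016 and 1019 in WT cells. These distances are a description over 4 arrays and share the difference that chose the set.

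Markers of other cells were set beside these values, and their part in them was not tested. Of 11 measured T and NK cell markers 5 were above the filter and 1 was lower: Nkg7, which read 928 and 1124 in Ezh2 KO cells, against 3271 and 3583 in WT cells, while Cd3d, Cd3g, Cd2, Cd4, Ncr1 and Gzmb had means below the filter. The summed intensity of this list was 1291 and 1422 in Ezh2 KO cells, against 3569.8 and 3773 in WT cells, and without Nkg7 it was 363 and 298 in Ezh2 KO cells, against 299 and 189.5 in WT cells. A sum over probe sets is dominated by the brightest of them. Each sum given without some markers leaves out exactly those called lower, so that choice itself brings the groups nearer. Of 10 macrophage markers 5 were tested, of which Cd68 and Vcam1 were lower (-0.89 and -1.80, limma adjusted p = 0.000326 and 1.09e-05), and 0 were higher. Adgre1, C1qb and Mrc1 had log2 changes of -0.14, 0.55 and 0.66 and did not pass, and C1qa and C1qc read 3.16 or less on every array. The macrophage sum was 4114 and 4525 in Ezh2 KO cells, against 8893 and 9675 in WT cells, and without Cd68 and Vcam1 it was 1468 and 1670.3 in Ezh2 KO cells, against 1653 and 1712 in WT cells. Adgre1 made up most of that remainder, at 1332 and 1576 in Ezh2 KO cells, against 1567 and 1621 in WT cells. Of 7 dendritic cell markers 5 were tested and 1 was lower, Bst2, which is also an interferon-induced gene. That sum was 669.7 and 758 in Ezh2 KO cells, against 951 and 882 in WT cells, and without Bst2 it was 329 and 369 in Ezh2 KO cells, against 313 and 248 in WT cells. No single-symbol erythroid, endothelial or stromal marker was called in either direction. Their sums were 127 and 120 for the erythroid list and 535 and 617 for the endothelial and stromal list in Ezh2 KO cells, against 138 and 163 and against 662 and 607 in WT cells. However, 3 probe sets that each read several globin genes were lower in Ezh2 KO cells, at log2 changes of -2.91, -2.21 and -3.48. Of 6 B and plasma cell markers 1 was higher, Sdc1 at 1.93. Among the 10 leukemic markers Itgam and Csf1r were higher (0.74 and 0.48) and 0 were lower.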

How the data were processed

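RNA of 2 Ezh2 KO and 2 WT samples was measured on 1-colour Mouse Genome 430 2.0 arrays. The deposited values are intensities on a linear scale, and the submitters' processing notes name Affymetrix Expression Console as the tool, of which version and algorithm are not given in the sources used here. Each array had a mean of 500 after trimming 2% at each end. Of 45101 probe sets, 64 controls were left out, 34945 had 1 gene symbol, 932 several and 9160 none. Intensity plus 16 was log2 transformed, and 31526 probe sets with a mean above 21.9 entered limma 3.58.1 in R 4.3.3 (lmFit, then eBayes with a trend), with Benjamini-Hochberg adjusted p under 0.05. A gene with several probe sets is given by the brightest, except that every probe set of the 10 genes is reported. The rule for named genes took all 10 members, up to 4 genes of each list with the largest absolute change past the threshold, every GBP or IRG gene with a probe set, and the 5 genes nearest to Gbp2 in profile; genes named beyond it, flanking genes and markers are identified where they occur. With 2 arrays a group, the number of arrays limits the precision, and an exact permutation test of 1 value cannot go below p = 0.333. On simulated data with 200 changed probe sets of 31526, the fit recovered 15.4%, 45.4% and 71.7% at log2 changes of 0.5, 1 and 2, and 5.34% of calls were false. The simulated errors were independent and drawn from limma's own fitted prior. These shares therefore follow from that model and do not check the calls made on the arrays. Alternatives were other normalizations, filters, added constants and priors, 1 probe set per gene, a replicate block and leaving out each array. The 10 genes, the lists and the tests were chosen with earlier results of these data known. Promoter sequences are from RefSeq (GRCm38.p6).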

Additional observations from a re-analysis of the deposited data

How the results depend on the processing

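The log2 changes of all member probe sets tested were negative under each of the 14 alternatives. Not all 12 were tested under each. With 1 probe set per gene 8 were tested, and with the filter at the 50th percentile 10, and no tested probe set lost its call in either. The count past the threshold, 10 of 12 in limma's fit, was 0 with a single prior variance, 8 to 11 when 1 array was left out, and 8 to 11 under the others. Probe set 1447927_at of Gbp6 (-2.36) and Irgm1 (-0.50) lost the call without WT replicate 2. Over all probe sets the count of 2303 became 1392 with no filter, 0 with a single prior variance (4978 at an unadjusted p under 0.05), and 1175 to 2161 when 1 array was left out, the lowest without WT replicate 1. The listed genes past the threshold, 25 of 95, became 0 with a single prior variance and 19 to 24 when 1 array was left out. Centring each array on its median turned the median of all tested probe sets to -0.04, from 0.04, and the share of calls that were higher to 33.5%, against 53.6%. The replicate block gave 3715 calls over all probe sets, 11 of the 12 and 29 listed genes, but the replicate numbers pair nothing in the labels, and the differences between replicates 1 and 2 in Ezh2 KO and in WT cells correlated at r = 0.0358 across probe sets. The causes were not tested. Probe sets near an intensity of 21.9, those of Gbp6 and 1 of Iigp1 among them, have changes whose size is set by the added constant.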
